A study of Rattus norvegicus with 10 samples.

Results

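Expression of 6 genes of the connective tissue matrix was followed across individual rats: the fibrillar collagen genes Col1a1, Col1a2 and Col3a1, the small leucine rich proteoglycan genes Ogn and Dcn, and the matrix Gla protein gene Mgp. They were chosen by symbol as genes that fibroblasts of the brain's coverings are known for, and every probe set that the platform annotation gave exactly 1 of these symbols was taken. This gave 6 of the 14217 genes with a symbol and 11 of the 31042 probe sets that were not array controls. The samples were 10 male Lewis rats, an inbred strain, with 1 expression array per rat hybridised with RNA of the prefrontal cortex (Fr1 and Fr2, anterior to bregma and trimmed of the olfactory bulb). All 10 rats were untreated, weighed 200 to 250 g, came from a set of 40 tested for behaviour, and were killed 6 days after the last test. They form 1 group, and the labels give each a score for sugar feeding, locomotion, startle and prepulse inhibition, while 7 also have a plus maze score. Rats are numbered 1 to 10 as the labels number the replicates.

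Fibrillar collagens are triple helices that assemble into the fibres of connective tissue. Col1a1 and Col1a2 encode the chains of type I collagen and Col3a1 the chain of type III collagen, which is laid down with it. Ogn (osteoglycin) and Dcn (decorin) encode proteoglycans of the leucine rich family, and decorin binds collagen fibrils and limits their thickness. Mgp encodes a vitamin K dependent protein known as an inhibitor of soft tissue calcification. In the brain, collagen fibres lie mainly in the meninges and around larger vessels, where fibroblasts make them, and neurons and most glia are not known as sources of fibrillar collagen. The arrays measured a bulk piece of cortex, so a larger number of cells of a type and more RNA per cell cannot be told apart in any value below.

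On the GRCr8 assembly RefSeq places Col1a1 at chr10:80380458-80397461, Col1a2 at chr4:33518557-33553484, Col3a1 at chr9:54866646-54902578, Ogn at chr17:15238500-15259167, Dcn at chr7:34167973-34208004 and Mgp at chr4:171497472-171500888. Upstream sequence matched by symbol for 2 of the 6 genes, Col1a2 and Ogn. It is shown because these genes varied together across the rats. The sequences are RefSeq's on GRCr8, 5′ to 3′ on the strand of the gene, and begin 250 bases before a start position. This position is the annotated gene start for Col1a2 and lies inside the annotated gene for Ogn. Capitals mark CCAAT and TATAAA, searched in the 250 bases on both strands (as ATTGG and TTTATA on the other).
Col1a2, chr4:33518307-33518406, plus strand: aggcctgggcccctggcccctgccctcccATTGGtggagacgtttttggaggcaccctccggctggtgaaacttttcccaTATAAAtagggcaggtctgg
Ogn, chr17:15259168-15259245, minus strand: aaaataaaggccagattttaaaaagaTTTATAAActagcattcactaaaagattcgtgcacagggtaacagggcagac
The Col1a2 stretch held ATTGG at -221 to -217 and TATAAA at -170 to -165 relative to the annotated start. That annotated start coincides with an ATG, so the first base of the transcript may lie upstream of it. The Ogn stretch held TATAAA at -222 to -217 relative to its start position, overlapped by TTTATA at -224 to -219. It lies outside the annotated gene, whose edge at 15259167 adjoins its last base. Both matches thus lie closer to that edge than these numbers give. Of all 33469 rat windows searched in the same way, 34.0% held CCAAT on either strand and 12.9% held TATAAA. In mouse, the Col1a2 promoter is known to have a CCAAT element bound by the factor CBF, also called NF-Y. A match of letters here is a description and not a binding site.

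Before the members are described, the arrays themselves can be summarised in ranges. Array medians lay between 3.91 and 4.02 log2, with rat 9 at 3.97 and rat 3 at 3.96. Neuronal genes were present at high level in every rat: Snap25, a synaptic membrane protein gene, ran from 14.3 to 14.6 log2, and Slc17a7, the vesicular glutamate transporter of cortical excitatory cells, from 12.5 to 12.9. Of the 31042 probe sets, the 15521 with the highest mean (at least 3.99 log2) were tested, and all 11 member probe sets were among them. Rats 9 and 3 were the top pair in all 11 member probe sets, though rat 3 lay close to the next rat on some of them. The results that rest on these rats are therefore given with and without them.

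The type I collagen genes differed several-fold between rats of the same strain. The Col1a1 probe set of highest mean, 1388116_at, was lowest in rat 8 at 6.91 log2, had a median of 7.86, and was highest in rat 9 at 9.49, with rat 3 at 9.22 (mean 8.04, SD 0.86, n = 10). Rats 1 and 2 followed at 8.53 and 8.40 log2. The other Col1a1 probe set, 1370864_at, ran from 5.75 in rat 6 over a median of 6.44 to 7.88 in rat 9. On it rat 3 had 7.29 and rat 1, close behind, 7.14. Both probe sets thus placed the same rats on top, and across the 10 rats they had r = 0.89 and rho = 0.81. They disagreed on rat 8, which was lowest on the first but, at 6.44 log2, in the middle on the second.

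Col1a2, which encodes the partner chain, gave the widest range of the 3 collagens. Its probe set of highest mean, 1370155_at, ran from 6.78 in rat 8 over a median of 8.14 to 9.82 log2 in rat 9, with rat 3 at 9.29 (mean 8.18, SD 0.88). The second probe set, 1387854_at, ran from 5.80 in rat 8 over a median of 6.33 to 8.68 in rat 9, with rat 3 at 7.54. In linear terms rat 9 stood 3.20-fold and 5.13-fold over the median rat on these probe sets, and rat 3 stood 2.23-fold and 2.32-fold over it. The 2 probe sets had r = 0.92 and rho = 0.95. Without rats 3 and 9 the remaining 8 rats still spanned 3.01-fold on the first and 2.32-fold on the second.

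Col3a1, measured by 1370959_at, ran from 6.69 log2 in rat 8 over a median of 7.57 to 9.17 in rat 9, with rat 3 at 8.87 (mean 7.76, SD 0.78). The next values, 8.09 in rat 1 and 7.96 in rat 2, were those of the rats that also followed in Col1a1. The whole range was 5.58-fold, and 2.64-fold over the 8 rats without 3 and 9. As each rat had 1 array, neighbouring rats in any of these orders cannot be separated by an error of their own.

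**Figure D1:**
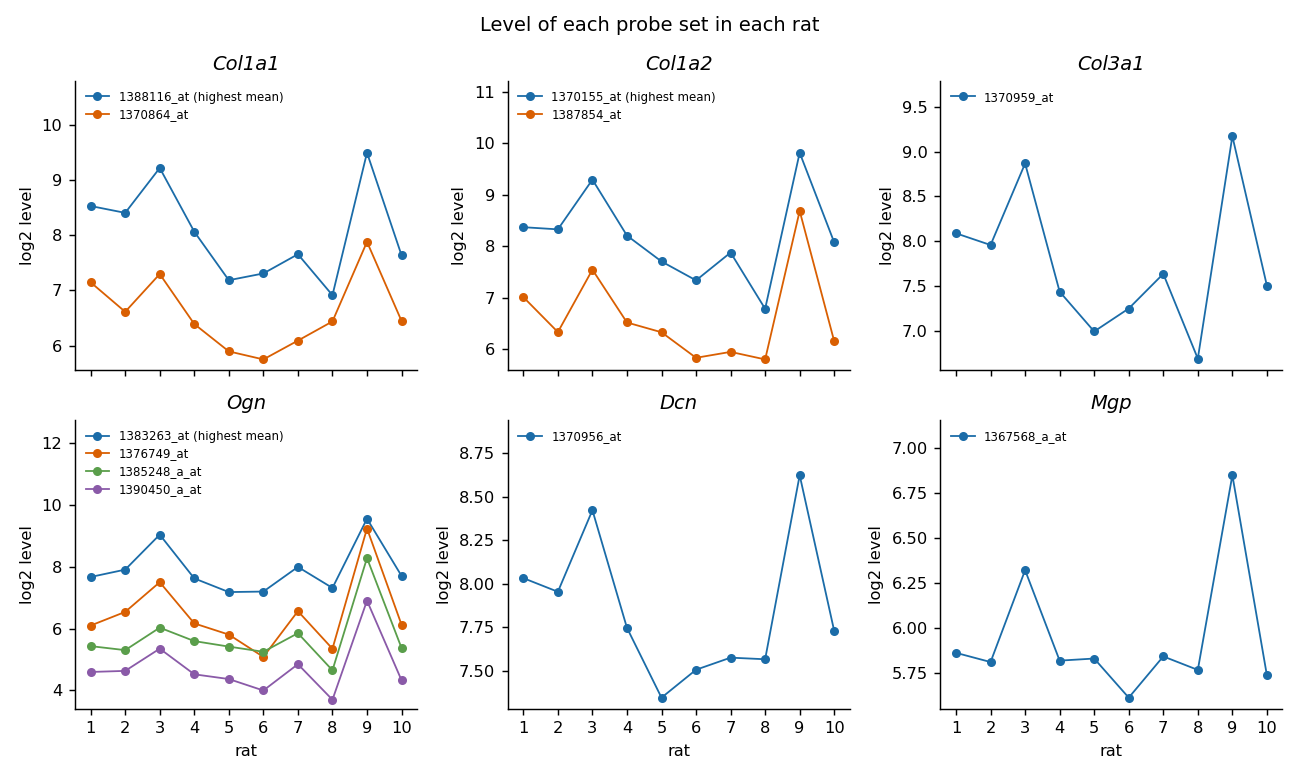
Level (log2) of each of the 11 probe sets in each of the 10 rats, 1 panel per gene with its own vertical scale, where lines only link the points of a probe set and the numbering of rats has no order. In all 11 probe sets the highest point is rat 9 and the second highest rat 3, and the lowest is rat 8 in 6, rat 6 in 3 and rat 5 in 2.

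Of the proteoglycan genes, Ogn had 4 probe sets and Dcn 1. Ogn 1383263_at, the probe set of highest mean, ran from 7.18 in rat 5 over a median of 7.69 to 9.56 log2 in rat 9, with rat 3 at 9.04 (mean 7.92, SD 0.79). Rat 7 came next at 8.00 log2, so the order below the top pair was not that of the collagens. The other 3 Ogn probe sets were also highest in rats 9, 3 and 7 in that order. On 1385248_a_at rat 3 had 6.03 and rat 7, close behind, 5.85 log2. On 1376749_at rat 9 reached 9.24 against a median of 6.15, which is 8.52-fold over the median rat, while rat 3 was 2.56-fold over it. On 1385248_a_at and 1390450_a_at rat 9 was 7.24-fold and 5.08-fold over the median, and rat 3 was 1.52-fold and 1.73-fold over it. The size of the rat 9 difference therefore depended on the probe set, from 3.65-fold on the first to 8.52-fold. The 6 pairs of Ogn probe sets had r of 0.86 to 0.98.

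Dcn, measured by 1370956_at, varied less in fold than the collagens. It ran from 7.35 in rat 5 over a median of 7.74 to 8.62 log2 in rat 9, with rat 3 at 8.42 (mean 7.85, SD 0.41), a span of 2.42-fold. Rats 1 and 2 followed at 8.03 and 7.95, as in Col1a1 and Col3a1. Without rats 3 and 9 the span was 1.61-fold.

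Mgp, measured by 1367568_a_at, was nearly level in 8 rats. It lay between 5.61 in rat 6 and 5.86 log2 in rat 1 in these rats, a span of 1.19-fold, while rat 3 had 6.32 and rat 9 had 6.85. The median over all 10 rats was 5.83, the mean 5.95 and the SD 0.37. Most of its range over the 10 rats lay between these 2 animals and the rest.

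All 11 member probe sets were highest in rat 9 and second highest in rat 3, against 0.606% of the 15521 probe sets tested (94). In either order these rats were the top pair in 1.13% of them. Rat 1 came next in 7 member probe sets, and rat 7 in the 4 of Ogn. The member probe sets had SDs between rats of 0.37 to 1.19 log2, compared with a median SD of 0.13 over the probe sets tested, and by SD they ranked from 19th (Ogn 1376749_at) to 903rd (Mgp). That Col1a1 and Col1a2 were highest in rats 9 and 3 was known when the genes were chosen, so these counts describe the pattern and are not independent evidence of it.

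Across rats, the 6 levels were correlated with each other. With each gene represented by its probe set of highest mean, the 15 pairs had Pearson's r of 0.82 to 0.98 (median 0.92) over 10 rats. All 15 passed an adjusted p of 0.05 in a two-sided permutation test, with a largest adjusted p of 0.00241 over the 15 pairs. The members were chosen with rats 9 and 3 known to be highest in Col1a1 and Col1a2. Their p-values here and along Col1a1 therefore describe the pattern and are not independent evidence of it. Spearman's rho ran from 0.62 to 0.98 (median 0.82), and 14 of 15 pairs passed, the exception being Ogn with Mgp (rho = 0.62, adjusted permutation p = 0.0608). Without rats 3 and 9, r fell to between 0.35 and 0.94 (median 0.68) and 5 of 15 pairs passed in the exact test. By rho, 6 of 15 passed without these rats. The 5 pairs that passed by r were the 3 among the collagens and Dcn's pairs with Col1a1 and Col3a1.

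Col1a1 and Col3a1 were the closest pair, with r = 0.98 (permutation p = 1e-05, the smallest the resamples can give, adjusted p = 0.0001) and rho = 0.96 (permutation p = 5e-05, adjusted p = 0.000375). Without the 2 rats farthest from the Col1a1 median, which were 9 and 3, r was 0.94 (exact p = 0.000868, adjusted p = 0.00837). Col1a1 and Col1a2, whose products join in the same type I collagen molecule, had r = 0.96 (permutation p = 2e-05, adjusted p = 0.0001) and rho = 0.98 (permutation p = 4e-05, adjusted p = 0.000375), and r = 0.90 without these rats. Col1a1 and Dcn had r = 0.96 (permutation p = 2e-05, adjusted p = 0.0001) and rho = 0.95 (permutation p = 0.00015, adjusted p = 0.000563), and again r = 0.90 without them. Col1a2 and Dcn had r = 0.91 with all 10 rats (permutation p = 0.00029, adjusted p = 0.000621), rho = 0.95 (permutation p = 0.00015, adjusted p = 0.000563), and r = 0.69 without rats 3 and 9 (exact p = 0.0593, adjusted p = 0.118). Without these rats rho was 0.90 for Col1a2 and Dcn and likewise 0.90 for Col1a1 and Dcn.

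Ogn and Mgp were less tied to the collagens once the top pair of rats was left out. Col1a1 and Ogn had r = 0.89 (permutation p = 0.00052, adjusted p = 0.000867) and rho = 0.81 (permutation p = 0.00764, adjusted p = 0.0127), but r = 0.68 without rats 9 and 3 (exact p = 0.0707, adjusted p = 0.118). Of the collagens, Col3a1 was the closest to Ogn, with r = 0.93 over all rats and 0.75 without rats 9 and 3 (exact p = 0.0327, adjusted p = 0.0817). Col1a1 and Mgp had r = 0.82 (permutation p = 0.00145, adjusted p = 0.00181) and rho = 0.75 (permutation p = 0.0171, adjusted p = 0.0215), but r = 0.47 without them (exact p = 0.244, adjusted p = 0.282). For Dcn and Mgp, r was 0.87 with all rats (permutation p = 0.00241, adjusted p = 0.00241), rho was 0.67 (permutation p = 0.0385, adjusted p = 0.0413), and r was 0.35 without the 2 rats. The relations of Mgp with the other 5 genes did not hold without rats 9 and 3, with r of 0.35 to 0.51. For Col1a2 and Mgp the 2 rats farthest from the Col1a2 median were 9 and 8, and r was 0.90 without that pair.

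**Figure D2:**
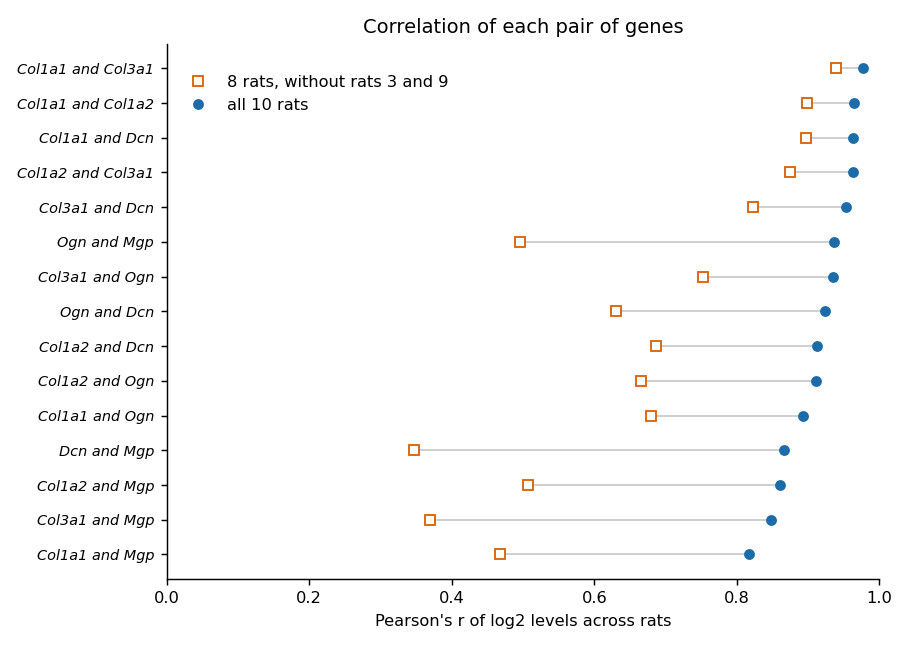
Pearson's r across rats of the log2 levels of each of the 15 pairs of genes, with all 10 rats (filled circles) and with the 8 rats other than 3 and 9 (open squares). All 15 filled circles lie between 0.82 and 0.98, while the squares spread from 0.35 to 0.94. Squares of pairs among the collagens and of Dcn with Col1a1 and Col3a1 are at the upper end, and those of Mgp at the lower end.

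The level of Col1a1 was then used as a predictor for every other probe set, which sets the members beside all measured genes. A slope here is the log2 difference of a probe set per log2 of the Col1a1 level of 1388116_at. In limma's moderated fit over 10 rats, 10 of 15519 probe sets passed a Benjamini-Hochberg adjusted p of 0.05 with a positive slope (0.0644%) and 0 with a negative slope (0%), while 626 had an unadjusted p under 0.05, 308 of them positive and 318 negative. Of the 9 member probe sets outside Col1a1, 3 passed and 9 had an unadjusted p under 0.05, with slopes of 0.35 to 1.19 and a median of 0.88, compared with a median of -0.006 over all probe sets tested. Col3a1 had a slope of 0.89 ± 0.06 (SE, adjusted p = 0.000631), Col1a2 1370155_at 0.98 ± 0.09 (adjusted p = 0.00271) and Dcn 0.46 ± 0.05 (adjusted p = 0.00408).

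The remaining members did not pass. Col1a2 1387854_at had a slope of 0.95 ± 0.14 (adjusted p = 0.0601), and the Ogn probe sets had slopes of 0.81 to 1.19 with adjusted p of 0.0790 to 0.908. Mgp had a slope of 0.35 ± 0.08 (adjusted p = 0.515). A slope near 1 for a collagen means that it varied by about the same fold as Col1a1, and the Dcn slope means that it varied by a smaller fold in the same rats.

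These counts depended on which rats and which Col1a1 probe set entered the fit. Without rats 3 and 9, 0 probe sets passed in limma and every member had an adjusted p of 0.822 or more, although the slopes stayed positive, at 0.76 for Col3a1, 0.85 for Col1a2, 0.36 for Dcn, 0.36 for Ogn and 0.06 for Mgp. Without rat 9 alone, only Col3a1 passed. Without rat 8 alone 4 probe sets passed, and without rat 3, 4 or 6 alone 6 passed, Col1a2, Col3a1 and Dcn among them each time. With the other Col1a1 probe set as predictor, an alternative chosen after seeing the data, only Dcn passed (slope 0.59 ± 0.06, adjusted p = 0.0254). With Col1a2 as predictor 19 probe sets passed, 6 of them members, and these included 3 of the 4 Ogn probe sets (adjusted p of 0.0177 to 0.0309).

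**Figure D3:**
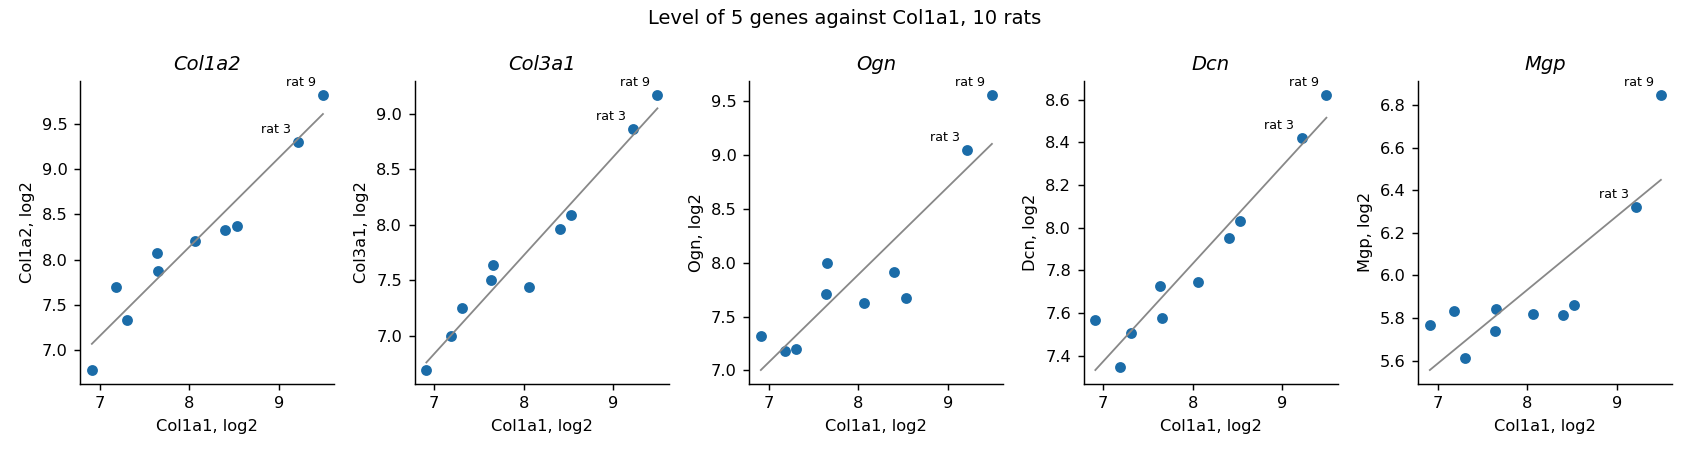
Log2 level of Col1a2, Col3a1, Ogn, Dcn and Mgp against the log2 level of Col1a1, each by its probe set of highest mean, with 1 point per rat (10 rats), a least squares line and rats 9 and 3 named. Col3a1 and Col1a2 follow the line over the whole range (r = 0.98 and 0.96), while the Mgp points of 8 rats lie between 5.61 and 5.86 and those of rats 3 and 9 at 6.32 and 6.85.

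Of the 10 probe sets that passed along Col1a1, 7 were not members, and 6 of these had a symbol. Igf2, the insulin-like growth factor II gene, had a slope of 0.84 ± 0.08 (adjusted p = 0.00402, r = 0.96). It ran from 8.73 in rat 8 over a median of 9.66 to 11.2 log2 in rat 9, with rat 3 at 10.8. Slc6a20a, a transporter of proline and related amino acids, had a slope of 0.99 ± 0.11 (adjusted p = 0.00634, r = 0.95) and ran from 5.62 in rat 8 to 8.54 in rat 9. Like the members, both genes were highest in rat 9 and second highest in rat 3.

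Vim, which encodes vimentin, the intermediate filament protein of mesenchymal cells and some glia, had a slope of 0.51 ± 0.06 (adjusted p = 0.00928, r = 0.95). Ptgds, the prostaglandin D2 synthase gene, had a slope of 0.58 ± 0.08, Colec12, a scavenger receptor of the collectin family, 0.81 ± 0.11, and Bgn, which encodes the proteoglycan biglycan, 0.32 ± 0.04, each with an adjusted p of 0.0276. Ptgds ran from 12.4 in rat 8 over a median of 13.3 to 14.3 log2 in rat 9, and Bgn from 5.54 in rat 8 over a median of 5.91 to 6.49 in rat 9. Each of these genes was again highest in rat 9 with rat 3 next. Without rats 3 and 9 the slopes were 0.68 for Igf2, 0.98 for Slc6a20a and 0.47 for Vim. They were 0.54 for Ptgds, 0.59 for Colec12 and 0.21 for Bgn, with an adjusted p of 0.822 for each in limma.

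The 10 named probe sets outside the members with the highest r with Col1a1 over the 10 rats comprised these 6 and Nxpe3 (r = 0.91), Dab2 (r = 0.90), Net1 (r = 0.90) and Bmp6 (r = 0.89). Dab2 encodes an adaptor protein of endocytosis, Net1 an exchange factor for RhoA, and Bmp6 a bone morphogenetic protein. Dab2 had 10.3 log2 in rat 9 and 10.2 in rat 3 against a median of 9.22, and Bmp6 had 9.00 in rat 9 and 8.43 in rat 3 against 7.96. Nxpe3 was the exception to the order, being highest in rat 3, and it spanned 1.26-fold in all. These 4 did not pass the adjusted threshold (adjusted p of 0.0601 to 0.515).

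At the other end, the 5 named probe sets of lowest r were Smarcc1 (r = -0.84), Bcl2l1 (r = -0.83), Rfng (r = -0.83), Il33 (r = -0.83) and Cln8 (r = -0.82). Smarcc1 encodes a subunit of the SWI/SNF chromatin remodelling complex and Bcl2l1 an inhibitor of apoptosis, Bcl-xL. Il33 encodes a cytokine of the interleukin-1 family that glia make in the brain. It was lowest in rat 3 at 6.52 and had 6.65 log2 in rat 9 against a median of 6.93. The slopes of the 5 were -0.05 to -0.31, and none of them passed the adjusted threshold. Smarcc1 hardly varied, spanning 1.14-fold over all rats, while the others spanned 1.45-fold (Il33) to 1.95-fold (Bcl2l1).

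Listed genes of the surrounding pathways were set along Col1a1 in the same fit. Of 227 genes in 25 lists, 205 had a probe set by symbol and 95 were tested. Of these, 3 passed, all with a positive slope (Igf2, Ptgds and Bgn), not counting Slc6a20a, which was listed as Slc6a20. The other fibrillar collagens, 4 tested of 8, had 0 members past the threshold and a median slope of 0.11, below all 5 other member genes (0.35 to 0.98 by their probe sets of highest mean). Col5a1, the type V collagen chain that co-assembles with type I, had a slope of 0.24 ± 0.14 (adjusted p = 0.991) and was highest in rat 3 at 7.13 log2, with rat 9 at 6.61 and a median of 6.46. Network and other collagens, 4 tested of 12, had a median slope of 0.09, among them Col4a2 at 0.13 and Col4a1, both of basement membranes, at -0.001. Col6a1 had the largest slope of that list, 0.17 ± 0.11 (adjusted p = 0.991). It had 6.23 log2 in rat 9 and 6.43 in rat 3 against a median of 5.78. Genes of collagen folding, hydroxylation and crosslinking, 8 tested of 21, had a median of 0.02, with the collagen chaperone gene Serpinh1 at 0.19 ± 0.07 (adjusted p = 0.991), P4ha2 at 0.12 and P4ha1, both prolyl hydroxylase subunits, at 0.03.

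No gene of the elastic and adhesive matrix list or of the protease list passed. The elastic and adhesive matrix list, 5 tested of 14, had a median of 0.31, including Nid1, a basement membrane linker, at 0.37 ± 0.08 (adjusted p = 0.470), and Fn1, fibronectin, at 0.40 ± 0.11 (adjusted p = 0.898). Efemp1 in this list had 0.31 ± 0.19, the collagen-binding protein gene Sparc 0.02 ± 0.07 and the fibrillin gene Fbn1 -0.04 ± 0.04. Of the matrix proteases and their inhibitors, 5 were tested of 10, with a median of 0.22. Among these the metalloprotease inhibitor gene Timp3 had a slope of 0.27 ± 0.06 (adjusted p = 0.499) and the membrane collagenase gene Mmp14 0.22 ± 0.05 (adjusted p = 0.685). Ctsk, the cathepsin K gene, had 0.27 ± 0.10, while Timp2 had 0.01 ± 0.04 and Adamts1 -0.05 ± 0.03. Genes of TGF-beta signalling, 5 tested of 10, had a median slope of 0.04, and those of Mgp carboxylation and BMP signalling, 2 tested of 6, had 0.07. Of the other leucine rich proteoglycans only Bgn, 1 of 11, was above the filter.

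The members were set beside other markers of meningeal fibroblasts. This list was chosen with earlier results of these data known, so its counts are not independent evidence for the name of the gene set. Of the 20 listed, 18 had a probe set by symbol and 9 were tested. Of these, 8 had a positive slope along Col1a1 (median 0.34), and 2 passed, Igf2 and Ptgds. Slc6a20 was listed but matched no probe set, as the array carries the symbol Slc6a20a. That gene (slope 0.99 ± 0.11, adjusted p = 0.00634 in limma) is not in these counts. Gjb2, a connexin gene, had a slope of 0.81 ± 0.16 (adjusted p = 0.265), Igfbp2 0.56 ± 0.10 (adjusted p = 0.148) and Aldh1a2, a retinoic acid synthesis enzyme, 0.34 ± 0.07 (adjusted p = 0.418). Gjb6, another connexin gene, had 0.17 ± 0.05 (adjusted p = 0.915), the cadherin gene Cdh11 0.05 ± 0.06 (adjusted p = 0.991) and Ccn3 -0.01 ± 0.04 (adjusted p = 0.998). Cdh11 and Ccn3, with means of 10.4 and 10.1 log2, thus gave slopes near 0 at a level well above the filter. The summed linear level of the list ran from 9810 in rat 8 over a median of 15397 to 28932 in rat 9, with rat 3 at 21448, but Ptgds alone made up 71.5% of it in rat 9 and 55.4% in rat 8. Without Ptgds the sum was 8238 in rat 9 and 6393 in rat 3, with a median of 5124 and a lowest value of 4338 in rat 5. The transcription factor genes Foxc1, Tbx18 and Zic1, however, were below the filter, with medians of 3.25, 2.77 and 2.15 log2 and no higher value than 3.28 in any rat, and Pdgfra, a receptor of fibroblasts that oligodendrocyte precursors share, had a slope of 0.08 ± 0.08 (adjusted p = 0.991). The markers tested therefore did not all follow the members, and those 3 factors gave no level to compare.

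Markers of other tissues and cell types were set beside the members in the same way. Smooth muscle and pericyte genes, 5 tested of 12, had a median slope of 0.03, with Acta2 at -0.03 ± 0.06 (adjusted p = 0.991). The other 4 tested genes of that list had slopes of 0.00003 (Pdgfrb), 0.03 (Abcc9), 0.09 ± 0.16 (Myh11) and 0.16 ± 0.26 (Rgs5). Endothelial genes, 9 tested of 12, also had 0.03, with 5 slopes above 0 and 4 below. Cldn5, a tight junction gene, had -0.01 ± 0.07 (adjusted p = 0.999), while Abcb1a had 0.20 ± 0.08, Vwf 0.14 ± 0.05 and Tek 0.12 ± 0.10 (adjusted p = 0.991 each, with unadjusted limma p of 0.0389, 0.0227 and 0.246). Blood genes, 2 tested of 7, had 0.06, with the globin gene Hbb at 0.13 ± 0.08 (adjusted p = 0.991). Microglial genes, 6 tested of 9, had -0.06, and all 6 slopes were below 0. The medians of these 4 lists thus ran from -0.06 to 0.06 when rounded, and no gene in them passed. Summed levels of the mural list lay at 750 in rat 9 and 735 in rat 3, near the median of 742. Acta2 made up 65.9% of the mural sum in rat 9. Without it the sum was 256 in rat 9 and 327 in rat 3 against a median of 302. The summed level of the endothelial list was 2626 and 2582 in these rats, near a median of 2665. The blood sum was highest in rat 9, at 8082 against a median of 6714, with rat 3 at 6326. Hbb made up 99.2% of it in rat 9. The microglial sum was 1695 in rat 9 and lowest in rat 3, at 1380, against a median of 1772.

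Bone, cartilage, choroid plexus, border macrophage and Schwann cell lists had 0 genes above the filter. Ttr, which defines choroid plexus, lay between 3.84 and 3.96 log2 in all 10 rats, with rat 9 at 3.89. Ependymal genes, 2 tested of 5, had slopes of 0.19 and -0.07, and their summed level was highest in rat 9, at 328 against a median of 199. Rarres2 made up 91.2% of that sum in rat 9, and without it the sum was 28.9 in rat 9 against a median of 29.3. The genes of ciliated cells were not higher in rat 9, with Dynlrb2 at 4.03 log2 against a median of 4.04, Foxj1 at 2.54 against 2.55 and Tmem212 at 2.74 against 2.75. Skeletal muscle genes, 2 tested of 8, had a median of -0.04, and the 1 skin gene tested of 3 had 0.0005. Of the muscle genes tested, Myh1 had a mean of 15.0 log2, while Myh2, Myh4 and Ckm, below the filter, had 3.41, 3.88 and 1.99. Whether the Myh1 probe set reports muscle RNA was not tested. The highest value of any bone, cartilage or choroid plexus marker in any rat was that of Ttr, 3.96 log2, under the filter level. Neuronal genes, 6 tested of 6, had a median of -0.02, and astrocytic genes, also 6 of 6, had -0.05.

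Myelin and striatal genes lay on the other side of 0. All 7 myelin genes tested of 8 had a negative slope along Col1a1 (median -0.30), among them Mog, a myelin surface protein, at -0.30 ± 0.09 (adjusted p = 0.991), and Mog was lowest in rat 3 at 9.11 log2, with rat 9 at 9.59 and a median of 9.96. All 6 striatal genes tested of 8 had a negative slope (median -0.41), with the D1 dopamine receptor gene Drd1 at -0.85 ± 0.43 (adjusted p = 0.991). Summed levels of the myelin list were 34165 in rat 9 and 28185 in rat 3 against a median of 38592, with a range of 28185 to 49184 over all rats, and those of the striatal list were 1911 and 1866 against 2598, with a range of 1866 to 8951. None of these genes passed the adjusted threshold, and the part of the myelin or striatal share of the dissected piece in the collagen differences was not tested.

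**Figure D4:**
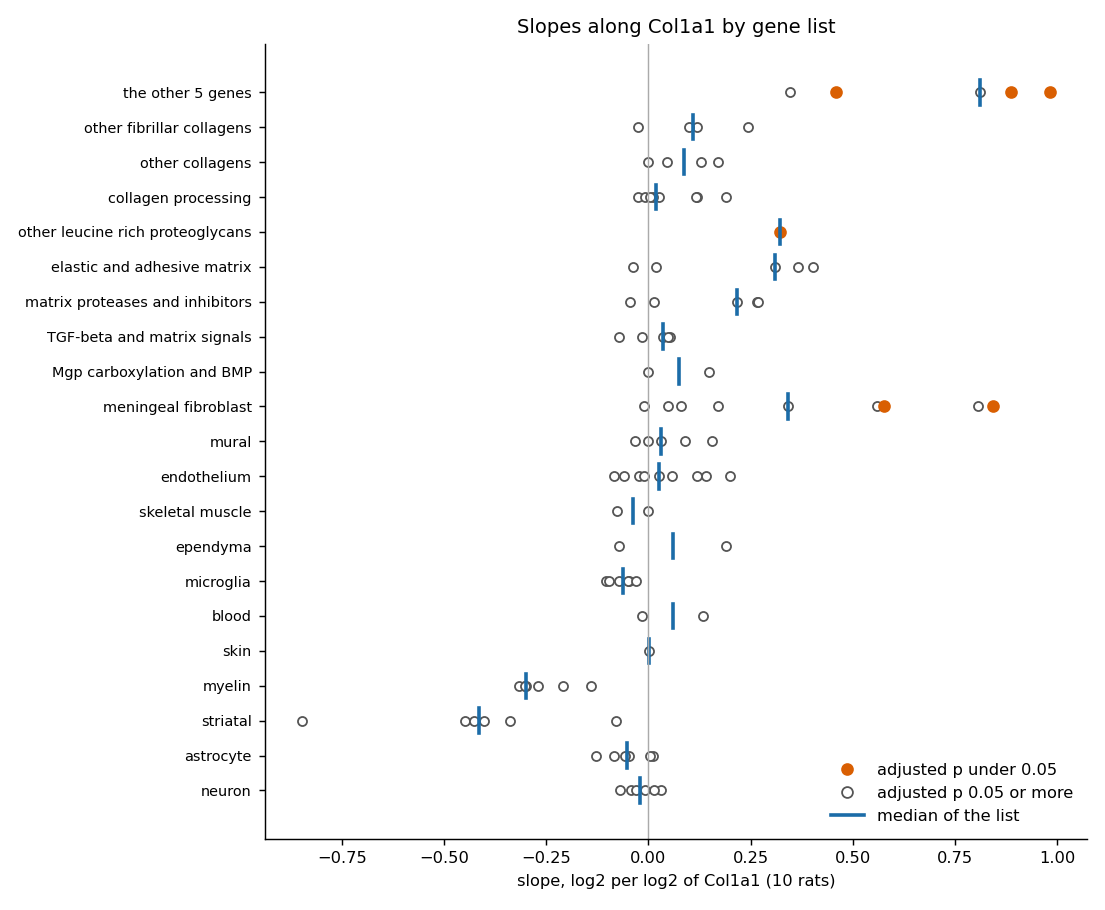
Slope along Col1a1 (log2 per log2, 10 rats) of each tested gene in each list, by its probe set of highest mean, with genes past an adjusted p of 0.05 filled and the median of each list as a bar. The other 5 member genes run from 0.35 to 0.98, the meningeal fibroblast list has its median at 0.34, and vessel, microglial and neuronal lists lie around 0, with the myelin and striatal lists below it.

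Technical measures were compared with Col1a1 over the 10 rats in a family of 6. For the array median, r was -0.06 (permutation p = 0.862) while rho was 0.07 (permutation p = 0.865). For the mean of the spike-in controls, r was 0.12 (permutation p = 0.749) while rho was 0.28 (permutation p = 0.432), and without rats 9 and 3 r was 0.60. The 3′ minus 5′ differences of actin and GAPDH, which rise when RNA is degraded, had r = -0.07 (permutation p = 0.862) and 0.07 (permutation p = 0.856), with rho of 0.19 (permutation p = 0.607) and 0.07 (permutation p = 0.865). Rats 9 and 3 had actin differences of 2.36 and 2.33 log2 against a median of 2.36, and GAPDH differences of 0.25 each against 0.23. The myelin score, the mean centred log2 level of the myelin genes, had r = -0.67 (permutation p = 0.0363, adjusted p = 0.218) and rho = -0.53 (permutation p = 0.123, adjusted p = 0.373), and r = -0.41 without these rats. The striatal score had r = -0.42 (permutation p = 0.232, adjusted p = 0.697) and rho = -0.53 (permutation p = 0.124, adjusted p = 0.373). None of the 6 measures passed after adjustment.

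By its title, the study asks about links between behaviour and mRNA in the brains of inbred rats. For the matrix genes, 0 of 11 probe sets had an adjusted p under 0.05 in limma for startle, locomotion, sugar feeding, prepulse inhibition or the plus maze score. The same was true of all 15521 probe sets, of which 0% passed for each score, while 5.59%, 2.93%, 2.13%, 7.41% and 6.95% of them had an unadjusted p under 0.05 for these scores in that order. None of the member probe sets had an unadjusted p under 0.05 for the 4 scores measured in 10 rats, and 1 had for the plus maze score.

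The 2 rats with the highest collagen levels did not share a behavioural profile. Startle was 927 in rat 9 and 687 in rat 3 against a median of 721 (units not stated). Prepulse inhibition, the reduction of startle by a weaker preceding sound, was 37.4 in rat 9 and 18.4 in rat 3 against a median of 26.0. Sugar feeding was 0.65 in rat 9 and 2 in rat 3 against a median of 1.325, and locomotion 10284 and 12985 against 12111. The rats thus stood on opposite sides of the median for all 4 scores.

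Slopes with behaviour are given as log2 per SD of the score. With sugar feeding, Col1a1 had 0.36 ± 0.24 (SE, 95% interval -0.20 to 0.92, n = 10), Col3a1 0.31 ± 0.22, Col1a2 0.26 ± 0.26, Ogn 0.20 ± 0.24, Dcn 0.13 ± 0.12 and Mgp -0.02 ± 0.12, all with an adjusted p above 0.99 in limma. With prepulse inhibition, Col1a1 had -0.30 ± 0.25 (95% interval -0.88 to 0.28), Col3a1 -0.28 ± 0.23 and Col1a2 -0.19 ± 0.27. By these probe sets the collagens were thus on the positive side with the first score and on the negative side with the second, with intervals that include 0. The other probe sets had the same signs but smaller slopes. Col1a1 1370864_at had 0.14 ± 0.20 with sugar feeding and -0.14 ± 0.20 with prepulse inhibition, and Col1a2 1387854_at 0.04 ± 0.28 and -0.03 ± 0.28. Ogn, Dcn and Mgp had -0.07 ± 0.24, -0.11 ± 0.12 and 0.05 ± 0.11 with prepulse inhibition.

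With startle, Col1a1 had a slope of -0.09 ± 0.27 (95% interval -0.70 to 0.53) and Ogn 0.21 ± 0.24 (95% interval -0.34 to 0.75). The 11 probe sets ranged from -0.09 to 0.44, with the 4 of Ogn at 0.21 and above. With locomotion the 11 ranged from -0.12 to 0.22, Col1a1 at 0.22 ± 0.26 (95% interval -0.38 to 0.82). All of these intervals include 0. Without rats 3 and 9 the slope of Col1a1 was -0.40 with startle, 0.45 with locomotion, 0.44 with sugar feeding and -0.41 with prepulse inhibition, and without rat 9 alone it was -0.35, 0.41, 0.56 and -0.49 with these scores in that order. Ogn without rats 3 and 9 had -0.071, 0.14, 0.27 and -0.16. None of these passed, with adjusted p of 0.533 or more in limma.

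The plus maze score was given for 7 rats, and not for rats 3, 6 and 9, so the rats with the highest collagen levels do not enter it. Ogn 1383263_at had a slope of -0.22 ± 0.08 (95% interval -0.42 to -0.01, unadjusted limma p = 0.0287, adjusted p = 0.682), and its other 3 probe sets had -0.15, 0.03 and -0.03. The probe sets of this gene therefore did not give the same value. Col1a1 had -0.19 ± 0.22, Col3a1 -0.20 ± 0.17, Dcn -0.14 ± 0.08, Col1a2 -0.04 ± 0.21 and Mgp 0.01 ± 0.03.

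**Figure D5:**
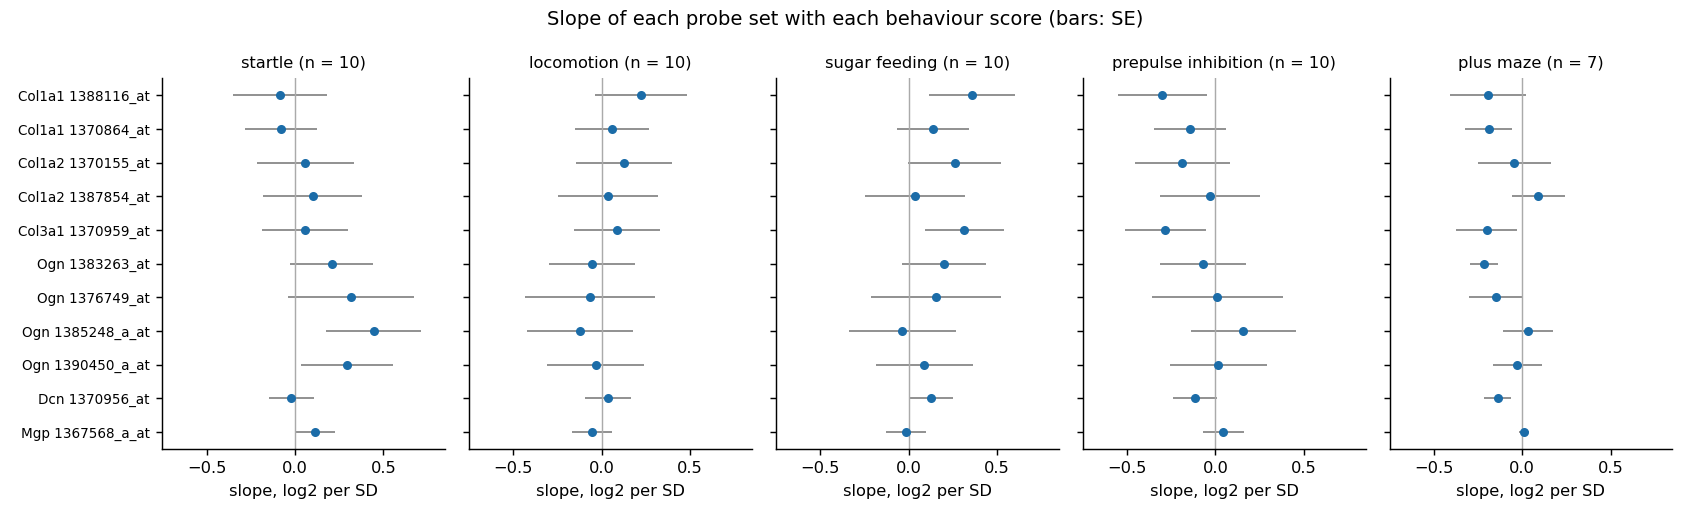
Slope of each of the 11 member probe sets with each behaviour score (log2 per SD of the score), where points are limma slopes and bars their SE, over 10 rats for 4 scores and 7 for the plus maze score. No probe set had an adjusted p under 0.05 for any score, and the slope of Col1a1 is 0.36 with sugar feeding and -0.30 with prepulse inhibition.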

How the data were processed

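Expression was measured with Affymetrix rat arrays in 10 rats, 1 array each. The deposited values are log2 levels per probe set, made by the authors with GCRMA under R 2.6.2, per the submitters' processing notes. GCRMA adjusts for background from the probes' sequences, quantile-normalises the arrays and combines the probes of a set (version not stated). The deposited probe set values kept small differences between arrays, with array medians of 3.91 to 4.02. The table had 31099 probe sets, of which 57 were controls, and 0 value columns were left unmapped.

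Symbols came from the platform annotation (20826 probe sets with 1 symbol, 436 with several, 9780 with none), and 20758 gene numbers matched RefSeq's GRCr8 annotation. The upper 50% by mean level entered the tests. All 11 member probe sets passed this filter. Where a gene had several probe sets, it stands by the one of highest mean unless another is named.

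Linear models of log2 level on each score, or on the Col1a1 level, were fitted by lmFit and eBayes (limma 3.58.1, R 4.3.3), two-sided, with Benjamini-Hochberg adjustment over all probe sets kept. The scripts were tested on simulated data. Correlations used 100000 resamples for 10 rats (numpy 2.4.6) and exact enumeration for 8. The labels give no batch, so none was fitted. Nothing beyond 1 array per rat was given, and p-values measure the spread between these rats.

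The members, lists and alternatives were chosen with earlier results of these data known. The rule named the 6 members, the 10 probe sets of highest and 5 of lowest r with Col1a1, and of each list the first gene and the 3 of smallest p, of which the text gives a part. Gjb2, Aldh1a2, Pdgfra, Foxc1, Tbx18, Zic1, Gjb6, Cdh11, Ccn3, Sparc, Fbn1, Timp2, Adamts1, Pdgfrb, Myh11, Foxj1, Tmem212, Snap25 and Slc17a7 were chosen after their values were seen. Alternatives changed the filter, the normalisation, the scale of scores, the moderation, the predictor and the rats.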

Additional observations from a re-analysis of the deposited data

Results flagged for a closer look

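In 17 sets of 10 values, the 11 member probe sets and 6 technical or marker measures, the gap between the most extreme rat and its nearest neighbour was divided by the whole range and compared with Dixon's 95% critical value for sets of 10. Chance exceeds this in about 1 of 20 sets. The members were chosen with rat 9 known to be highest in Col1a1 and Col1a2, and probe sets of 1 gene are not independent. That rate is therefore no reference for the member probe sets. Rat 9 exceeded the critical value on the Ogn probe set 1385248_a_at, with a ratio of 0.620, and on the Ogn probe set 1390450_a_at, with 0.485. On the first, rat 9 had 8.28 log2 and the next rat, rat 3, 6.03. On the second they had 6.91 and 5.35. Ogn 1383263_at and 1376749_at, which were also highest in rat 9, stayed under the critical value, as did the probe sets of the other 5 genes. The 3′ minus 5′ difference of actin was farthest from the rest in rat 7, with a ratio of 0.555, at 2.59 log2 against a median of 2.36. Rat 7 held the highest Ogn values after rats 9 and 3, and whether RNA quality had a part in them was not tested.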

How the results depend on the processing

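No paired analysis was possible because the 10 rats form 1 group with 1 array each. The count of probe sets past the threshold along Col1a1, 10 with all rats, was 6 without the filter, 5 with ranks of the Col1a1 level, 0 without rats 3 and 9, 19 with Col1a2 as predictor and 1 with the other Col1a1 probe set, the last added after seeing the data. It was 7 with quantile normalisation, 10 with median centring, 10 with trend and robust moderation and 11 with the spike-in level as covariate. Leaving out 1 rat at a time gave 1 to 13, the lowest without rat 9, with 4 without rat 8 and 6 without each of rats 3, 4 and 6. Of the 15 pairs, 5 passed without rats 3 and 9, and 15 passed without any single rat. The number of member probe sets past the threshold for a behaviour was 0 under every alternative run. Slopes with behaviour that changed sign were small: Col1a1 with startle was 0.16 with the 4 scores in 1 model, Ogn with startle -0.071 and with locomotion 0.14 without rats 3 and 9, and Ogn with prepulse inhibition 0.083 with the 4 scores in 1 model. Over single rats left out, Ogn ranged from -0.037 to 0.31 with startle, from -0.13 to 0.12 with locomotion and from -0.25 to 0.033 with prepulse inhibition, and Col1a1 from -0.30 to 0.16 with the plus maze score. Col1a1 kept its sign but not its size with startle (-0.35 to -0.003), locomotion (0.12 to 0.41), sugar feeding (0.24 to 0.56) and prepulse inhibition (-0.49 to -0.18). Beyond fewer rats or a changed number of probe sets, the cause of these differences was not tested. For the plus maze score, leaving out rats 3 and 9 changes nothing, as these rats have no such score. Ogn along Col1a1 passed with the spike-in level as covariate (adjusted p = 0.0286). The number of arrays limits all of these values.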

Other observations

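Some genes below the filter level were high in the same rats, and they were chosen after their values were seen. Fmod, which encodes fibromodulin, a leucine rich proteoglycan like decorin, had 4.94 log2 in rat 9 and 4.87 in rat 3, with a median of 2.98 over the 10 rats. Slc13a4, a sulfate transporter gene known from meningeal fibroblasts, had 6.20 in rat 9 and 4.80 in rat 3, with a median of 3.69. A pair of genes of antigen presentation on macrophages and related cells gave the same order at low level: Cd74 had 3.77 in rat 9 and 3.40 in rat 3, with a median of 2.98, and RT1-Da had 2.86 in each, with a median of 2.16. Mrc1, another macrophage gene, had 2.24 in rat 9 and 2.21 in rat 3, with a median of 2.24. Lum, which encodes the proteoglycan lumican, had 2.72 in rat 9 and 2.68 in rat 3, with a median of 2.72. Other listed markers of meningeal fibroblasts below the filter did not share the high values of Slc13a4 in both rats. Crabp2 had 4.48 in rat 9 and 3.61 in rat 3 against a median of 3.58, and Slc6a13 had 3.02 and 2.42 against 2.45. Slc22a6 had 2.88 and 2.85 against 2.89, Foxc2 2.55 and 2.51 against 2.55, and Spp1 2.28 and 2.23 against 2.28. These probe sets were below the filter level in mean and were not tested.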
